A study of Mus musculus with 8 samples.

Results

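The genes described here are the Wnt ligands, their receptors, secreted inhibitors, R-spondins and targets, 49 of the 23361 genes in the table, in 5 cancers and 3 control samples of the mouse gastric squamous-columnar junction (SCJ), the border between forestomach and glandular stomach. The rule uses gene names, and it was set with earlier results of these data known. All genes whose symbol is Wnt or Fzd followed by a digit were taken, together with Lrp5, Lrp6, Dkk1, Dkk2, Dkk3, Sfrp1, Sfrp2, Sfrp4, Sfrp5, Wif1, Rspo1, Rspo2, Rspo3, Rspo4, Rnf43, Znrf3, Axin2, Lef1, Tcf7 and Nkd1. The cancers, labelled Trp53-/-Rb1-/-, arose after tamoxifen in mice that carry the Lgr5 eGFP-Ires-CreERT2 allele, floxed alleles of Trp53 (loxP/loxP) and of Rb1 (loxP/loxP) and the tdTomato reporter Ai9, and were cut out along the border of tdTomato fluorescence. In these mice the Lgr5 locus drives Cre from a knock-in allele, so recombination starts in Lgr5+ cells, while a dissected tumor also holds stroma and blood cells. The controls were SCJ tissue of age-matched wild-type stomachs, and whether they were among the control mice that the study injected with tamoxifen is not clear. The controls came from 3 stomachs, while nothing says that each tumor came from a separate mouse, so the p-values measure the spread between these samples.

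Wnt proteins are lipid-modified secreted ligands that bind a Frizzled receptor together with Lrp5 or Lrp6. Binding stops the breakdown of beta-catenin, which then acts with Tcf/Lef transcription factors on targets such as Axin2. Sfrp, Wif1 and Dkk proteins hold this signal down outside the cell, whereas R-spondins raise it by removing the ubiquitin ligases Rnf43 and Znrf3 from the cell surface. In the glandular stomach this pathway is known for maintaining stem cells at the base of the glands.

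Values are FPKM, fragments per kilobase of transcript scaled to the size of the library, which the authors rounded to whole numbers, so a gene at 1 or 2 FPKM moves in coarse steps. The depth of the libraries is unknown. The FPKM of all genes summed to between 403569 and 573858 in the cancers and to between 887141 and 992550 in the controls, where the 10 most abundant genes took 39.3% to 44.3% of the sum. Each gene was therefore also examined as TPM, in which all libraries have the same sum. This rescaling moved the median over all 14357 genes tested, as a log2 fold change, from -0.038 to 0.81. The share of a gene in the sum over its own family does not depend on this scaling. Of the deleted genes, Rb1 had 4 to 6 FPKM in the cancers and 9 or 10 in the controls, and Trp53 had 12 to 30 and 16 to 19. Neither value separates the deleted exons from the rest of the gene. In bulk tissue, fewer cells of a type and less RNA per cell cannot be told apart.

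Of the 49 genes, 33 had at least 1 FPKM in at least 3 libraries and could be tested, and 13 were listed at 0 in every library. In the comparison of cancers with controls, 10 of the 33 passed an adjusted p of 0.05 (limma on log2(FPKM + 1), Benjamini-Hochberg adjustment over all genes tested), which is 30.3% beside 34.5% of all genes tested. Rspo4, Wif1, Axin2 and Dkk2 were higher, 12.1% beside 16.2% of all genes. Wnt7b, Wnt11, Fzd4, Fzd5, Lrp6 and Rspo1 were lower, 18.2% beside 18.3%. With TPM, 12 of the members were higher (36.4%, beside 50% of all genes) and 2 lower (6.06%, beside 3.68%), and the 2 called lower were Fzd4 and Fzd5. Wnt7b, Wnt11 and Rspo1 kept their direction with TPM but not their call. In 3 members every cancer lay above every control (Rspo4, Wif1 and Axin2), beside 14.4% of all genes, and in 2 every cancer lay below (Fzd4 and Fzd5), beside 19.8%. These 5 made up 15.2% of the members tested, beside 34.1% of all genes. The share of members called was near that of all genes, and their median log2 fold change was -0.083, or 0.61 with TPM. On removal of cancer 3 or of any 1 control, 2 members were higher, Rspo4 and Wif1. On removal of cancer 1, cancer 3 or control 2 there were 2 lower, of cancer 4 there were 3, and of control 1 or control 3 there was 1, Fzd4.

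**Figure D1:**
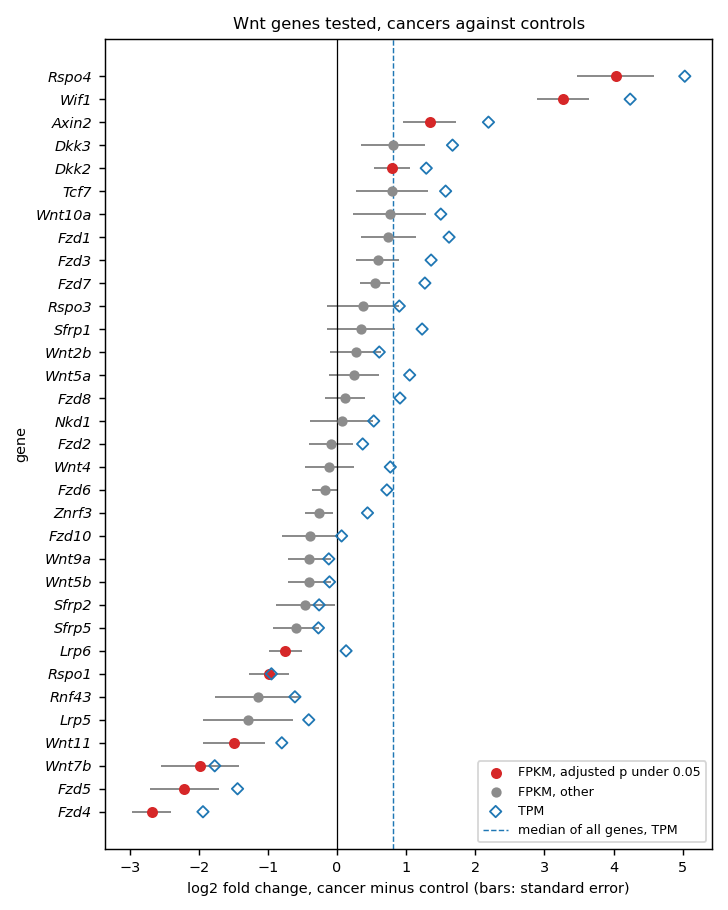
Log2 fold changes, cancer minus control, of the 33 Wnt genes tested, on the log2(FPKM + 1) scale, in order of size, with bars for standard errors from limma, open diamonds for TPM and a dashed line at the TPM median of all genes (0.81). Rspo4 and Wif1 (3.27) lie farthest to the higher side and Fzd4 (-2.68) and Fzd5 (-2.21) farthest to the lower side, and 23 of the 33 did not pass the threshold. The controls of Rspo4 and Dkk2 were all at 0, so their points are fitted values and not folds.

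**Figure D2:**
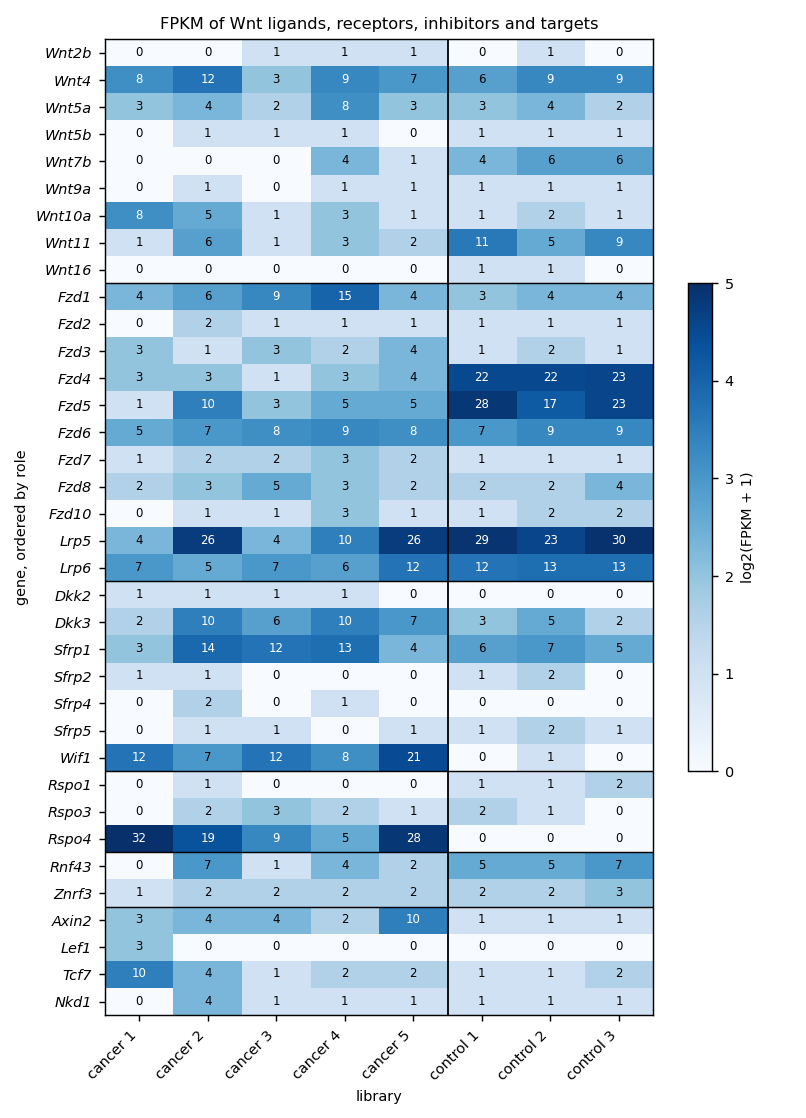
FPKM of the Wnt genes above 0 in any of the 8 libraries, printed in each cell on a log2(FPKM + 1) color scale, with genes in rows by role and libraries in columns. Rspo4 and Wif1 reach 5 to 32 FPKM in the cancers and 0 or 1 FPKM in the controls, and Fzd4 and Fzd5 have 1 to 10 FPKM in the cancers and 17 to 28 FPKM in the controls.

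Few of the ligands were detected. Of 19 Wnt genes, 8 could be tested, of which 2 were called, both lower (25%, beside 18.3% of all genes called lower), and 10 were listed at 0 in all libraries (the 19 include Wnt1, Wnt2, Wnt3 and Wnt3a, none of which reached the level needed for a test). Wnt4, Wnt5a, Wnt7b, Wnt10a and Wnt11 together made up 77.8% to 100% of the summed ligand FPKM in the cancers and 86.7% to 93.1% in the controls. Wnt4, the ligand with the highest mean over all libraries, had 8, 12, 3, 9 and 7 FPKM in cancers 1 to 5 and 6, 9 and 9 FPKM in controls 1 to 3. The controls lay within the range of the cancers (log2 difference of -0.11 with a standard error, SE, of 0.36, limma adjusted p = 0.83), and with TPM the difference was 0.77 in the other direction. Wnt5a, which signals mostly without beta-catenin, had 2 to 8 FPKM in the cancers and 2 to 4 FPKM in the controls (limma adjusted p = 0.61, and 0.036 with TPM).

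Wnt7b and Wnt11 were lower in the cancers. Wnt7b (chromosome 15, 85535437 to 85593708, mm10) had 0, 0, 0, 4 and 1 FPKM in cancers 1 to 5 and 4, 6 and 6 FPKM in the controls. Cancer 4 reached the lowest control, and the other cancers lay below all controls. The log2 fold change was -1.98 (SE 0.56, limma adjusted p = 0.030). Wnt11, a ligand known for signaling in cell movement, lies on chromosome 7 from 98838845 to 98854747 and had 1, 6, 1, 3 and 2 FPKM in the cancers and 11, 5 and 9 FPKM in the controls. Cancer 2 overlapped the controls, and the log2 fold change was -1.49 (SE 0.45, limma adjusted p = 0.040). With TPM the values were -1.77 for Wnt7b and -0.80 for Wnt11 (adjusted p = 0.064 and 0.14 from limma). Wnt7b missed the threshold on removal of cancer 1, 2 or 3 or of any 1 control (adjusted p from 0.054 to 0.097), and Wnt11 when any library other than cancer 2 was left out (0.053 to 0.14). Wnt10a had 8 and 5 FPKM in cancers 1 and 2 and 1 to 3 FPKM in all other libraries (limma adjusted p = 0.29).

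Of the 11 receptors tested, 3 were called, all lower (27.3%, beside 18.3% of all genes called lower and 34.5% called in either direction). Fzd4 and Fzd5 were each several times lower in the cancers, whereas no other Frizzled was called by FPKM, and Fzd1, Fzd3, Fzd6, Fzd7 and Fzd8 were called higher with TPM, as were 50% of all genes. Fzd4, also the receptor for the ligand Norrin, lies on chromosome 7 from 89404366 to 89410110 and had 3, 3, 1, 3 and 4 FPKM in cancers 1 to 5. The controls had 22, 22 and 23 FPKM, so the groups were far apart. The log2 fold change was -2.68 (SE 0.28, limma adjusted p = 0.0011). None of the cancers reached the lowest control, and a permutation test over all splits (exact, two-sided) gave p = 0.018, the lowest value possible with 5 against 3 samples. Fzd4 passed the threshold under each of the 8 alternatives and without each of the 8 libraries.

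Fzd5, a receptor of gut epithelium, lies on chromosome 1 from 64730558 to 64737750. It had 1, 10, 3, 5 and 5 FPKM in cancers 1 to 5 and 28, 17 and 23 FPKM in the controls, and every cancer lay below every control. The log2 fold change was -2.21 (SE 0.50, limma adjusted p = 0.015), with p = 0.018 by exact permutation. With TPM the log2 fold changes were -1.94 for Fzd4 and -1.44 for Fzd5 (adjusted p = 0.0030 and 0.034 from limma). Without control 1 or control 3 the adjusted p of Fzd5 was 0.064 or 0.054 from limma.

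Fzd4 and Fzd5 together made up 75.8%, 65% and 67.6% of the summed Frizzled FPKM in the controls and 21.1%, 37.1%, 12.1%, 18.2% and 29% in cancers 1 to 5. Fzd1 and Fzd6 together made up 15.2%, 21.7% and 19.1% in the controls and 47.4%, 37.1%, 51.5%, 54.5% and 38.7% in the cancers. These shares do not depend on the scaling of a library, and both pairs were chosen after their values were seen. The share of the first pair was higher in every control than in any cancer, and that of the second pair higher in every cancer than in any control. The shares of a library add up to the whole, so a lower share of the first pair raises the others. The second difference is therefore not separate from the first, and neither Fzd1 nor Fzd6 was called by FPKM. Single genes did not all follow the pairs, and Fzd5 was the most abundant Frizzled of cancer 2, at 28.6% of the sum. The Frizzled sum itself was 60 to 68 FPKM in the controls and 19 to 44 FPKM in the cancers. As TPM these sums overlapped, at 67.6 to 69.1 in the controls and 47.1 to 78.6 in the cancers.

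**Figure D3:**
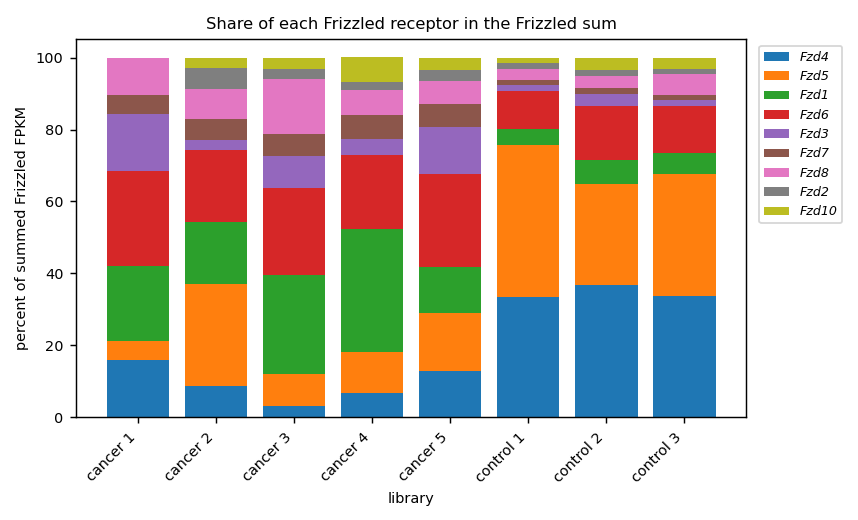
Percent of the summed Frizzled FPKM contributed by each Frizzled gene, one stacked bar per library. The shares of Fzd4 and Fzd5 add up to 65% or more in the 3 controls and to 37.1% or less in the 5 cancers.

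Fzd6 had 5 to 9 FPKM in the cancers and 7 to 9 FPKM in the controls (log2 difference of -0.17 with an SE of 0.19, limma adjusted p = 0.52), and the difference was 0.72 in the other direction with TPM (adjusted p = 0.025). Fzd1 had 4, 6, 9, 15 and 4 FPKM in the cancers and 3, 4 and 4 FPKM in the controls, and Fzd7 had 1 to 3 FPKM beside 1 in each control. Neither passed the threshold (adjusted p = 0.17 for Fzd1 and 0.080 for Fzd7 from limma), although both did with TPM (0.0084 and 0.0061), and Fzd7 did without cancer 1 (0.018). Fzd3 had 1 to 4 FPKM in the cancers and 1 or 2 FPKM in the controls (limma adjusted p = 0.17, and 0.041 without cancer 2).

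The coreceptors Lrp5 and Lrp6 gave less clear values. Lrp6 (chromosome 6, 134446478 to 134566913) had 7, 5, 7, 6 and 12 FPKM in the cancers and 12, 13 and 13 FPKM in the controls. Cancer 5 lay among the controls and the other cancers below them (log2 difference of -0.75 with an SE of 0.24, limma adjusted p = 0.045). With TPM the log2 fold change was 0.13, and the threshold was missed without any library other than cancer 5 (adjusted p from 0.065 to 0.12 from limma). Lrp5 (chromosome 19, 3584825 to 3686564) had 4, 26, 4, 10 and 26 FPKM in the cancers and 29, 23 and 30 FPKM in the controls. Cancers 2 and 5 were at the level of the controls, the other cancers were below it, and the difference was within this spread (log2 difference of -1.29 with an SE of 0.65, limma adjusted p = 0.15, and 0.026 with array weights).

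The clearest difference among the secreted inhibitors was in Wif1, which binds Wnt ligands directly. Wif1 (chromosome 10, 121034004 to 121100642) had 12, 7, 12, 8 and 21 FPKM in cancers 1 to 5 and 0, 1 and 0 FPKM in the controls. All cancers were above all controls (p = 0.018 by exact permutation). The log2 fold change was 3.27 (SE 0.38, limma adjusted p = 0.0016), 4.24 with TPM and 5.66 with 0.1 in place of 1 added before taking logs. Wif1 made up 19.4% to 63.6% of the summed inhibitor FPKM in the cancers and, in the controls, 0%, 5.88% and 0%, where Sfrp1 and Dkk3 led.

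Sfrp1, which binds Wnt ligands through a Frizzled-like domain, had 3, 14, 12, 13 and 4 FPKM in the cancers and 6, 7 and 5 FPKM in the controls, with cancers on both sides of the controls (log2 difference of 0.35 with an SE of 0.49, limma adjusted p = 0.60). Dkk3 had 2, 10, 6, 10 and 7 FPKM in the cancers and 3, 5 and 2 FPKM in the controls (log2 difference of 0.81 with an SE of 0.46, limma adjusted p = 0.19). Both passed with TPM (adjusted p = 0.046 for Sfrp1 and 0.013 for Dkk3), and Dkk3 passed without cancer 1 (0.031). Dkk2 (chromosome 3, 132085292 to 132180304), which binds Lrp5 and Lrp6, had 1 FPKM in cancers 1 to 4 and 0 in cancer 5, and was listed at 0 in all controls. Dkk2 thus passed the filter for testing only through the cancers, where it is higher. Its adjusted p of 0.045 from limma rests on this single step of the rounded scale and became 0.051 without the filter. With quantile normalization it was 0.39, and it lay between 0.072 and 0.12 without any library other than cancer 5. The inhibitor sum was 19 to 36 FPKM in the cancers and 8 to 17 FPKM in the controls, and 0.95 to 3.56 times the ligand sum in the cancers beside 0.276 to 0.567 times in the controls. This ratio leans on Wif1: in cancer 1, at 0.95, Wif1 gave 12 of the 19 FPKM beside a ligand sum of 20 FPKM.

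Among the R-spondins the difference was nearly all in Rspo4. Rspo4 (chromosome 2, 151842927 to 151874668) had 32, 19, 9, 5 and 28 FPKM in cancers 1 to 5 and was listed at 0 in the 3 controls. The cancers thus spread over several-fold, and all lay above the controls (limma adjusted p = 0.0028, and p = 0.018 by exact permutation). No fold change is given against a group listed at 0. The adjusted p stayed at 0.038 or below from limma under each alternative and without each library. Rspo4 made up 71.4% to 100% of the summed R-spondin FPKM in the cancers, whose sums were 7 to 32 FPKM beside 2 or 3 FPKM in the controls.

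Rspo1 (chromosome 4, 124986430 to 125009099) had 0, 1, 0, 0 and 0 FPKM in the cancers and 1, 1 and 2 FPKM in the controls, with cancer 2 level with controls 1 and 2. The log2 fold change was -0.99 (SE 0.29, limma adjusted p = 0.032), or -0.95 with TPM (adjusted p = 0.083). It stayed called when cancer 2 was removed, but not on removal of any other library (0.055 to 0.11). Rspo3 had 0 to 3 FPKM in the cancers and 0 to 2 FPKM in the controls, and Rspo2 was listed at 0 throughout. Rnf43, the ligase that takes Frizzleds off the cell surface, had 0, 7, 1, 4 and 2 FPKM in the cancers and 5, 5 and 7 FPKM in the controls, so the cancers reached from 0 to the highest control (log2 difference of -1.14 with an SE of 0.62, limma adjusted p = 0.18, and 0.022 with array weights). Znrf3, the related ligase, had 1 or 2 FPKM in the cancers and 2 or 3 FPKM in the controls (limma adjusted p = 0.33). With quantile normalization it was called lower, at -0.63 (limma adjusted p = 0.04).

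Of the 3 transcription factors and targets tested, 1 passed the threshold, Axin2, which was higher. This is 33.3%, beside 16.2% of all genes called higher and 34.5% called in either direction. Axin2 (chromosome 11, 108920349 to 108950781), a scaffold of the complex that breaks down beta-catenin and a widely used readout of the pathway, had 3, 4, 4, 2 and 10 FPKM in cancers 1 to 5 and 1 FPKM in each control. Every cancer lay above every control, by as little as 1 FPKM in cancer 4. The log2 fold change was 1.34 (SE 0.38, limma adjusted p = 0.031), 2.19 with TPM (adjusted p = 0.0057) and 1.04 with quantile normalization (adjusted p = 0.087), with p = 0.036 by exact permutation. Without cancer 2 or 3 the adjusted p was 0.051 or 0.066, and without any control 0.090 to 0.094.

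Nkd1, another feedback target, was not called. It had 0, 4, 1, 1 and 1 FPKM in the cancers and 1 in each control (log2 difference of 0.064 with an SE of 0.45, limma adjusted p = 0.92), and fell on the other side of 0 with quantile normalization (-0.24). Tcf7 had 10, 4, 1, 2 and 2 FPKM in the cancers and 1, 1 and 2 FPKM in the controls, with cancers 1 and 2 above the rest (log2 difference of 0.80 with an SE of 0.52, limma adjusted p = 0.26). Lef1 had 3 FPKM in cancer 1 and was listed at 0 in every other library. Tcf7 and Lef1 are also expressed in T cells, and the 6 T cell markers examined summed to 36 FPKM in cancer 1, 3 to 10 FPKM in the other cancers and 3 or 4 FPKM in the controls, where Cd8a and Cd2 were at 0. The part of T cells in these values was not tested.

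**Figure D4:**
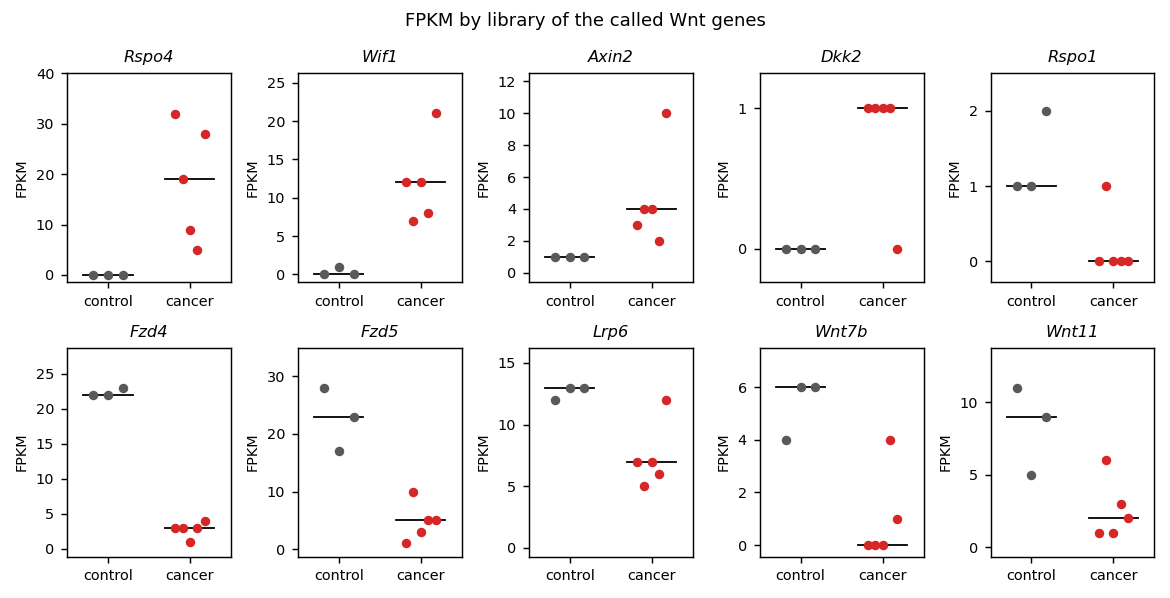
FPKM by library of the 10 Wnt genes that passed the threshold. Each point is 1 library, horizontal lines are group medians, and each panel has its own linear axis. The groups are fully apart for Rspo4, Wif1, Axin2, Fzd4 and Fzd5 and overlap or share a value for the other genes.

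The start regions of Fzd4 and of the genes above every control are printed to set the sequence of examples of both directions beside their values. Each is the 250 bases before the start site, from the RefSeq annotation of GRCm38.p6, 5′ to 3′, with CpG dinucleotides in capitals.
Rspo4 (chr2:151842677-151842926, plus strand): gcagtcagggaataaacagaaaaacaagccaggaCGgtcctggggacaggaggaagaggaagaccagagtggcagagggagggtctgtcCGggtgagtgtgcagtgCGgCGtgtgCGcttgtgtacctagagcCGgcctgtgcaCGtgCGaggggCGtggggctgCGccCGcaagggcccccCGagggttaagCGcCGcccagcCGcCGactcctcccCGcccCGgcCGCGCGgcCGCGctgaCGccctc
Wif1 (chr10:121033754-121034003, plus strand): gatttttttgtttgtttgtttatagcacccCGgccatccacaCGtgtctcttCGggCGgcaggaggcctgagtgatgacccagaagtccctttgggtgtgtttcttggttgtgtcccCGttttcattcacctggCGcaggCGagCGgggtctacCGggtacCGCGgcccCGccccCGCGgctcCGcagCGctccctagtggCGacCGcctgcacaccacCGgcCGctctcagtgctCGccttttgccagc
Axin2 (chr11:108920099-108920348, plus strand): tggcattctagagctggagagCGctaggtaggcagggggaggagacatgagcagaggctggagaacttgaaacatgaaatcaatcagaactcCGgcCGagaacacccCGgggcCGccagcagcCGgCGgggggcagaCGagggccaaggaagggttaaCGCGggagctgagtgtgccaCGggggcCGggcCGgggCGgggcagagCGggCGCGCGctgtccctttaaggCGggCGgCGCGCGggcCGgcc
Fzd4 (chr7:89404116-89404365, plus strand): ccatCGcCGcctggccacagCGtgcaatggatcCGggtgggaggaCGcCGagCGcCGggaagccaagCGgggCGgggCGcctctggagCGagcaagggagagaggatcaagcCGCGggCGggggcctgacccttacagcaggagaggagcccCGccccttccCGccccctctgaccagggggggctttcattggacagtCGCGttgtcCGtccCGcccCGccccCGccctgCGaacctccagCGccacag
They held 24, 21, 24 and 25 CpG dinucleotides, in that order, beside a median of 6 over 32851 such windows of all genes and of 20 over the 41 windows found for 33 members. The window of Fzd5, which is not printed, held 32. Windows of 300 bases, reaching 50 bases past the start site, were searched on both strands for the Tcf/Lef motif, written as CTTTGAA or as CTTTGAT, and with the other ending as CTTTGTA or as CTTTGTT, and for the E2F motif in the forms TTTCCCGC, TTTCGCGC, TTTGCCGC and TTTGGCGC. No form of one motif holds a form of another. A Tcf/Lef form was in 14.6% of the member windows (6 of 41) and 16.9% of all windows. An E2F form was in 4.88% of the member windows (2 of 41) and 2.26% of all windows, and 2 windows are too few to compare. None of these letters was in the windows of Rspo4, Wif1, Axin2, Fzd4 or Fzd5.

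The makeup of the tissue differed between the libraries. Rnf43, Fzd5 and other genes followed 1 measure of it among the cancers. Summed over 8 gastric markers (Muc5ac, Gkn1, Gkn2, Tff1, Atp4a, Atp4b, Pgc and Gif), the cancers had 692, 71637, 5572, 53276 and 15447 FPKM and the controls 237018, 156289 and 222484 FPKM, with 1 of the 8 called lower and 0 higher. For each of these markers except Pgc, every cancer lay below every control, with a wide spread among the cancers. Muc5ac, Atp4a, Atp4b and Gif were at 0 in cancer 1. Most of the sum came from Tff1, Gkn2 and Gkn1, at 34501, 18772 and 12040 FPKM in cancer 2. Single markers ranked the cancers otherwise, with Atp4a at 810 FPKM in cancer 4 and 370 in cancer 2, and Pgc at 6762 and 4546. The control sums include Pgc at 28832, 0 and 0 FPKM, where 0 can be a failed estimate. In the order of the sum over the 8 markers, from cancer 1 over cancers 3, 5 and 4 to cancer 2, Rnf43 had 0, 1, 2, 4 and 7 FPKM and Fzd5 had 1, 3, 5, 5 and 10 FPKM. Wnt11, with 1, 1, 2, 3 and 6 FPKM, and Lgr4, with 5, 10, 17, 19 and 25 FPKM, also followed this order. So did Dkk3, with 2, 6, 7, 10 and 10 FPKM, and Nkd1, with 0, 1, 1, 1 and 4 FPKM. Fzd4 and Rspo4 did not follow that order, with 3, 1, 4, 3 and 3 FPKM and with 32, 9, 28, 5 and 19 FPKM. Lrp5, with 4, 4, 26, 10 and 26 FPKM, did not follow it either. The FPKM sums of the libraries had this same order among the cancers. As TPM, Rnf43 kept the order, with 0, 2.28, 4.49, 7.15 and 12.2, and Fzd5 did not, with 2.48, 6.84, 11.2, 8.93 and 17.4. The 5 epithelial markers summed to 725 to 4650 FPKM in the cancers and 5558 to 7755 FPKM in the controls, with Epcam called higher and Cdh1 and Krt8 called lower. The part of remaining gastric epithelium in these values was not tested.

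**Figure D5:**
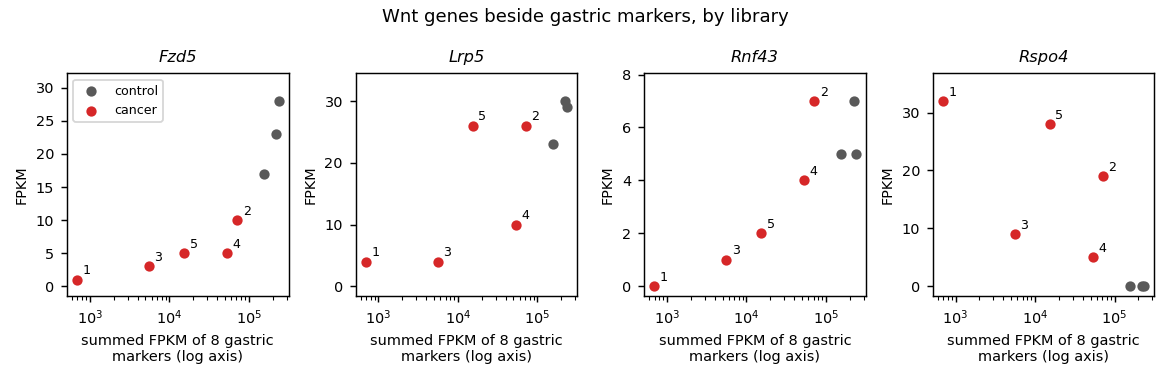
FPKM of Fzd5, Lrp5, Rnf43 and Rspo4 against the summed FPKM of 8 gastric markers (log axis), one point per library, with cancers numbered. Fzd5 and Rnf43 are lowest in cancer 1, which has the lowest marker sum (692 FPKM), and highest among the cancers in cancer 2 (71637 FPKM), whereas Rspo4 does not follow the marker sum among the cancers.

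Neuroendocrine markers were called higher, with Chga at 3247 to 12837 FPKM in the cancers and 108 to 152 FPKM in the controls, Chgb at 1725 to 7002 and 7 to 21 FPKM, Syp at 37 to 87 and 4 to 10 FPKM, and Insm1 at 24 to 59 and 1 FPKM. Fibroblasts and endothelium are sources of Wnt inhibitors and R-spondins in many tissues. The 7 fibroblast markers summed to 64 to 338 FPKM in the cancers and 73 to 134 FPKM in the controls, with 1 called higher, and the 4 endothelial markers to 12 to 38 FPKM and 6 to 9 FPKM, with 2 called higher. Among the cancers, cancer 5 had the lowest fibroblast and endothelial sums, of 64 and 12 FPKM, and the highest levels of Wif1 and Axin2, at 21 and 10 FPKM. Cancer 1 had the highest endothelial sum, of 38 FPKM, and the highest level of Rspo4, at 32 FPKM, while cancer 5 had 28 FPKM of Rspo4. Of 5 smooth muscle markers, 0 were called, and they summed to 23 to 1230 FPKM in the cancers and 239 to 401 FPKM in the controls. The 5 squamous markers summed to 0 to 1588 FPKM in the cancers and 1533 to 2572 FPKM in the controls (1 called lower), and the 4 macrophage markers to 10 to 28 FPKM and 8 FPKM (2 called higher). The 5 hepatocyte markers summed to 493 to 3331 FPKM in the cancers and to 2 or 3 FPKM in the controls, mostly from Ahsg, and Fga, Fgg and Apoh were above 0 in cancer 5 alone. The part of any of these cells in the Wnt values was not tested.

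A further 62 genes of the pathway, listed by function, were set beside the members. Of these, 55 could be tested and 21 were called (38.2%, beside 34.5% of all genes). Of the 21, 12 were higher (21.8%, beside 16.2% of all genes) and 9 lower (16.4%, beside 18.3%). With TPM, 24 were higher (43.6%, beside 50% of all genes) and 1, Dkkl1, was lower (1.82%, beside 3.68% of all genes). With 1 added before log2 and all libraries, the largest fall was that of Dkkl1, a relative of Dkk3. It had 0 to 3 FPKM in the cancers and 9 to 15 FPKM in the controls (log2 difference of -2.48, limma adjusted p = 0.0062, and -1.97 with TPM). Sostdc1 fell more than Dkkl1 with 0.1 added before log2 (-4.16 beside -3.49) and without cancer 4 (-2.57 beside -2.42). Lgr4, a receptor for R-spondins, had 5, 25, 10, 19 and 17 FPKM in the cancers and 63, 45 and 47 FPKM in the controls. Every cancer was below every control (log2 difference of -1.86, limma adjusted p = 0.019), with an adjusted p of 0.063 with TPM and of 0.056 to 0.079 without any 1 control. Lgr5, the related receptor whose locus carries the Cre allele, had 0 to 2 FPKM in all libraries.

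Sostdc1, an inhibitor that binds Lrp6, had 0, 0, 1, 4 and 0 FPKM in the cancers and 3, 10 and 7 FPKM in the controls (log2 difference of -2.16, limma adjusted p = 0.031). It missed the threshold with TPM (0.057) and without cancer 1, 2, 3 or 5 or control 2 or 3 (0.057 to 0.11). The corepressor Tle3, the beta-catenin inhibitor Ctnnbip1 and Apc, a scaffold of the destruction complex, were lower by FPKM, at -1.37, -1.20 and -0.80 on the log2 scale. With TPM these values were -0.47, -0.32 and 0.069, none of them called, and Apc missed the threshold without control 2 (limma adjusted p = 0.051).

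Ror2, a receptor for Wnt5a, had 6, 8, 12, 15 and 27 FPKM in the cancers and 1 FPKM in each control, with every cancer above the controls (log2 difference of 2.70, limma adjusted p = 0.0039). Celsr3 of the planar cell polarity branch had 10, 3, 9, 3 and 10 FPKM in the cancers and was listed at 0 in the controls (adjusted p = 0.0033). Prickle2 of the same branch had 1 to 4 FPKM in the cancers and 0, 1 and 0 FPKM in the controls (log2 difference of 1.37, limma adjusted p = 0.023, and 0.091 or 0.087 without control 1 or 3). Nkd2, a relative of Nkd1, had 1 to 4 FPKM in the cancers and was listed at 0 in the controls (adjusted p = 0.018, and 0.061 to 0.064 without any 1 control). Cd44, a surface receptor that is also a Wnt target, had 16, 46, 55, 31 and 32 FPKM in the cancers and 8, 10 and 11 FPKM in the controls (log2 difference of 1.69, limma adjusted p = 0.012, and 0.055 without control 1). The corepressor Tle1 had 9 to 25 FPKM in the cancers and 4 or 5 FPKM in the controls, opposite to Tle3 (log2 difference of 1.63, limma adjusted p = 0.010). Ctnnb1, which encodes beta-catenin itself, had 128 to 199 FPKM in the cancers and 169 to 224 FPKM in the controls, with no call by FPKM (log2 difference of -0.31, limma adjusted p = 0.21). The direction turned with TPM, at 0.67 (limma adjusted p = 0.024), and with quantile normalization, at 0.19 (0.52).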

How the data were processed

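The 49 genes and the lists of other pathway genes and cell type markers were chosen with earlier results of these data known. PolyA+ RNA of 5 SCJ cancers and 3 control SCJ samples was sequenced. Per the labels the kit was a directional NEBNext kit, whereas the study's methods name a TruSeq kit, and which was used is not clear. Reads were processed by the authors with cutadapt 1.8, TopHat2 2.0.13 and Cuffnorm 2.2.1 (mm10, submitters' processing notes). The strand setting of the counting is not given in the sources used here, so genes annotated on the opposite strand over Rspo4, Axin2, Wnt7b, Wnt11, Fzd5 and Rspo1, all among the members called, may share reads with them. The deposited FPKM values were rounded to whole numbers by the authors and are treated as a score (100% were whole), not as counts. Depth is unknown, and its effect on precision could not be given. Rounding hides small differences at low levels, and an exact 0 can be a failed estimate: Pgc is listed at 0 in controls 2 and 3 and at 28832 FPKM in control 1.

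A gene was tested if 3 or more samples had 1 FPKM or more, which left 14357, compared on log2(FPKM + 1) with limma 3.58.1 in R 4.3.3 (lmFit, eBayes with trend, Benjamini-Hochberg adjustment, threshold 0.05), after the script was tested on simulated data. Rspo4, Dkk2, Celsr3 and Nkd2, listed at 0 in all controls, could pass this filter only through the cancers. Fold changes on this scale understate those of low genes. For single genes an exact permutation test (two-sided) enumerated all 56 ways to divide 8 samples. Alternatives were 0.1 added before log2, TPM, quantile normalization, no filter, a mean FPKM of at least 5, array weights, eBayes without trend, a block for the replicate number and leaving out each sample. Starts in the table count from 0 and are given from 1. Wnt5b shares its locus with Fbxl14. All members were given by role, with values in every sample for members past the threshold or without overlap and for the most abundant of each role, and, of the other pathway genes, up to 6 with the largest rise and 6 with the largest fall among those called. Fzd1, Fzd6, Fzd7, Wnt5a, Wnt10a, Nkd1, Tcf7, Lef1, Dkk3, Fzd3, Rspo3, Znrf3, Sfrp5, Lgr5, Ctnnb1 and the list of markers beside them were named after their values were seen. Promoters are RefSeq windows of GRCm38.p6. A marker and a motif that were also examined are not reported here.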

Additional observations from a re-analysis of the deposited data

Results flagged for a closer look

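In 4 of 45 genes examined 1 cancer stood apart from the other 4. The measure is the gap to the nearest other cancer divided by the range of the 5 cancers, both on log2(FPKM + 1). Chance gives about 1 in 20 groups of continuous values, a rate that does not hold for whole numbers, where 4 tied cancers always give 1. For Fzd4 it was 0.756, with cancer 3 at 1 FPKM and the others at 3 or 4. It was 1 for Dkk2 (cancer 5 at 0, the others at 1), for Rspo1 (cancer 2 at 1, the others at 0) and for Znrf3 (cancer 1 at 1, the others at 2). These 3 values are fixed by ties on the rounded scale. Leaving out cancer 3 gave Fzd4 a log2 fold change of -2.46 (limma adjusted p = 0.00099), beside -2.68 with all libraries.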

How the results depend on the processing

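Numbers of called genes depended on the scaling. Members called higher were 4, and 12 with TPM, 2 with quantile normalization, 2 with a mean FPKM of at least 5 and 2 to 5 without 1 library. Members called lower were 6, and 2 with TPM, 3 with a mean FPKM of at least 5 and 1 to 4 without 1 library. Quantile normalization called Sfrp5 lower (-0.89, limma adjusted p = 0.043), beside an adjusted p of 0.19 by FPKM. Other pathway genes called higher were 12, and 24 with TPM, 6 with quantile normalization, 5 with a mean FPKM of at least 5 and 4 to 13 without 1 library. Those called lower were 9, and 1 with TPM, 15 with array weights and 4 to 10 without 1 library. All genes called were 4948, and 7704 with TPM (7176 higher, 528 lower), 8148 with array weights and 2548 to 5232 without 1 library, the lowest being 2548, 2700 and 2874 without controls 1, 2 and 3.

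Same-numbered cancers and controls do not pair: their deviations from the group means correlated at -0.021, -0.19 and -0.1. A replicate block called 3 members higher and 2 lower, 2 other pathway genes higher and 1 lower, and 1534 of all genes. Wif1 and Fzd5 had adjusted p = 0.051 and 0.12 with the block from limma.

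Log2 fold changes changed sign with TPM for Wnt4 (0.77), Fzd2 (0.37), Fzd6 (0.72), Fzd10 (0.065), Lrp6 (0.13), Znrf3 (0.44) and Apc (0.069), and with quantile normalization for Wnt2b (-0.16), Fzd8 (-0.22), Rspo3 (-0.0025) and Nkd1 (-0.24). Nkd1 also did so with 0.1 added before log2 (-0.31), as did Wnt5a (-0.17) and Nkd1 (-0.042) with array weights. Leaving out 1 cancer did so for Wnt4 (range over the libraries -0.28 to 0.15), Fzd2 (0.15), Fzd8 (-0.038) and Nkd1 (-0.25 to 0.33), and leaving out 1 control for Fzd8 (-0.0025) and Rspo3 (-0.058 to 0.73). Of 694 values for 45 genes, 572 kept direction and side of the threshold, 86 lost and 15 gained significance, and 21 changed sign. The cause was not tested. With 5 against 3 samples, rounded values and unknown depth, differences at 1 or 2 FPKM are not resolved.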
